A study of Mus musculus with 28 samples.

Results

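The comparison described here is 1 pair of libraries of newly made RNA from mouse macrophages after 45 min of lipopolysaccharide (LPS), 1 from cells with a hairpin against Pnuts and 1 from cells with a scrambled hairpin. Both were chosen by their labels and stand in the same table, and the series holds 28 libraries in all. Bone marrow of FVB/Hsd mice was seeded, infected with retrovirus over consecutive days, selected with puromycin and used as macrophages on day 7 of differentiation. Both groups therefore carry an integrated vector and were grown in L929-conditioned medium, which supplies macrophage colony-stimulating factor, and each group is 1 selected pool of cells with 1 hairpin. The labels used here give neither the age nor the number of the mice. LPS was given at 10 ng/ml, and 4-thiouridine (4sU), a uridine analog that marks RNA made while it is present, was in the medium for the last 45 min before harvest. The LPS times come from the sample titles, since the treatment text names 4 h for the samples as a whole. The same hairpins without LPS form a second pair in the table, which is used here for comparison. Libraries of other sets at 45 min LPS are also used, with Set1a+Set1b hairpins and their scrambled control. A Wdr82 hairpin is set against an empty vector in an unstranded set and against a scrambled hairpin in another set. The latter set also holds libraries treated with DRB, which are not used. The untreated empty vector library of the unstranded set serves to group genes by LPS response.

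Pnuts is the common name of Ppp1r10, a nuclear targeting subunit of protein phosphatase 1. With WDR82, TOX4 and the phosphatase it forms the PTW/PP1 complex, which removes phosphates from the RNA polymerase II machinery and takes part in slowing and ending transcription. In macrophages LPS acts through TLR4 and within minutes switches on immediate early genes and then cytokine genes, so RNA labelled over this window holds the first wave of the response.

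The targeted gene was not lower in the cells with the hairpin. Ppp1r10 (ENSMUSG00000039220, chr17:36053379-36069226 in mm9) stood at 203 FPKM (fragments per kilobase, a level corrected for gene length and library size) in the scrambled library at 45 min and at 332 FPKM in the library labelled Pnuts sh. Without LPS the values were 89.5 and 144 FPKM. The log2 ratio was 0.70 at 45 min and 0.68 without LPS, and the deposited lower and upper bounds overlapped, at 79.4 to 328 FPKM against 88.4 to 576 FPKM at 45 min. A hairpin acts on mature RNA, and 4sU RNA is newly made, so this value is no direct measure of depletion. Why it was higher with the hairpin was not tested. Mature RNA and protein of PNUTS were not analysed here. For this reason the 2 libraries are named by their labels, and every direction given below rests on the label.

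Each condition has 1 library, so no difference was tested, no p exists, and a ratio describes 2 libraries rather than a condition. Whether the pools came from separate animals is not given. Ratios are log2 of (FPKM + 1) in the library labelled Pnuts sh over (FPKM + 1) in the scrambled library. A gene counted as tested when it had at least 1 FPKM in either library and the status OK in both, and as called at 2-fold. The tables hold no counts, so absolute depth is unknown. From the step between low values, 1 fragment was worth 1.56 times as much in the library labelled Pnuts sh at 45 min as in the scrambled library at 45 min, a relative depth of 0.642. Both untreated libraries were deeper, at 1.18 times the scrambled 45 min library. The lowest genes of the library labelled Pnuts sh are therefore the least precise of the table. A second gauge of error is the scrambled 45 min library of the Set1a+Set1b set, which was normalized in another table. Whether it came from the same culture is not given. Of 12958 genes tested between these 2 scrambled libraries, 223 were at least 2-fold higher in that of the Pnuts table and 310 lower.

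In all, 882 of 13254 tested genes (6.65%) were at least 2-fold higher in the library labelled Pnuts sh and 558 (4.21%) were at least 2-fold lower. Among the 10143 tested genes without small RNA, clone, predicted gene or pseudogene names, the calls were 503 higher and 249 lower. Deposited bounds were apart for 129 of the higher genes (0.973%) and 73 of the lower ones (0.551%). The untreated pair gave fewer calls, with 498 of 13049 genes (3.82%) higher and 377 (2.89%) lower. The median log2 ratio over all tested genes was 0.09 at 45 min and 0.02 without LPS. Of the calls at 45 min 61.3% were higher, and after quantile normalization of the libraries, with 660 higher and 635 lower, 51.0% were. Of the calls, 355 had 0 FPKM in the lower library, and 331 of these carried small RNA, clone, predicted gene or pseudogene names or lay on very short loci. Against the scrambled library of the Set1a+Set1b table, 462 of the 882 higher genes were again at least 2-fold higher and 269 of the 558 lower genes at least 2-fold lower. About as many calls were lost as kept with the other control, and where a named gene's call is lost with it, this is said beside the gene or its list.

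**Figure D1:**
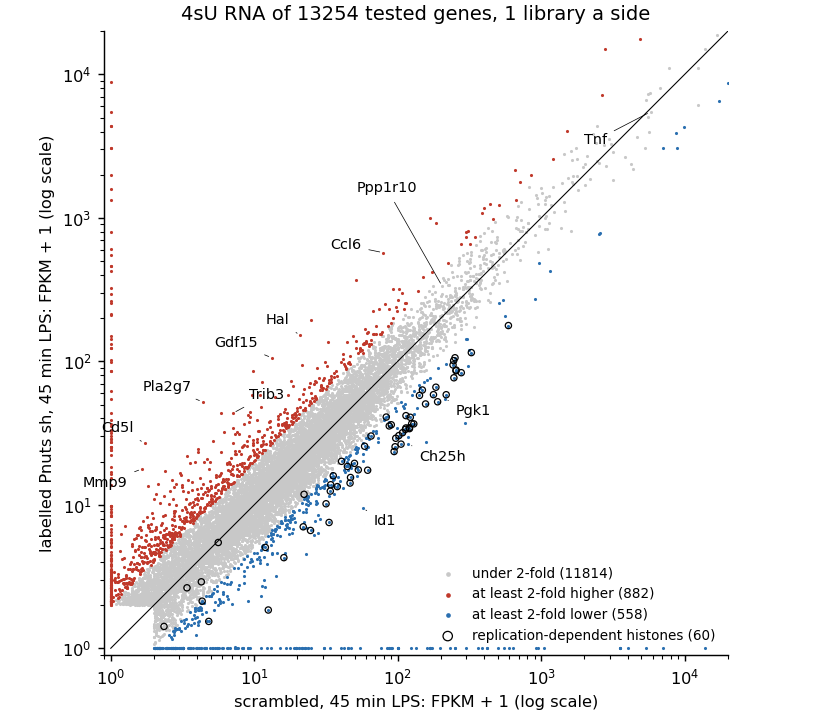
FPKM + 1 of the 13254 tested genes in the scrambled (x) and the Pnuts sh-labelled (y) library at 45 min LPS, both on log axes, with the line of equal values; red marks 882 genes at least 2-fold higher, blue 558 at least 2-fold lower, and open circles the 60 tested histone genes, which lie below the line. Points on the left and bottom edges have 0 FPKM in 1 library, and 31 genes above the plotted range are not shown.

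The 15 highest log2 ratios at 45 min ran from 2.53 to 3.97. Cd5l, a secreted macrophage protein and liver X receptor (LXR) target, had 0.720 FPKM in the scrambled library and 25.97 FPKM in the library labelled Pnuts sh at 45 min, a log2 ratio of 3.97. Without LPS it had 0.725 and 22.4 FPKM. Both libraries labelled Pnuts sh thus stood far above both scrambled ones, and the scrambled library of the Set1a+Set1b table was as low, at 1.15 FPKM. Pla2g7, the plasma platelet-activating factor acetylhydrolase, had 3.50 and 32.9 FPKM without LPS and 3.38 and 51.1 FPKM at 45 min (log2 3.57). Mmp9, a gelatinase, had 0.560 and 14.3 FPKM without LPS and 0.651 and 16.8 FPKM at 45 min (log2 3.43). These 3 genes lie apart in the genome, at chr3:87161803-87174996, chr17:43705047-43749150 and chr2:164766280-164781350 in mm9. In the scrambled cells none of the 3 differed by 2-fold between LPS and no LPS, and their ratios in the untreated pair were 3.76, 2.91 and 3.29.

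A second kind among the 15 highest ratios stood higher with LPS as well. Gdf15, a stress-induced cytokine of the TGF-beta family at chr8:73153292-73156355, had 5.41 and 22.8 FPKM without LPS and 12.3 and 105 FPKM at 45 min, a log2 ratio of 2.99. Bmp2, a bone morphogenetic protein, had 0.0925 and 1.94 FPKM without LPS and 1.37 and 16.2 FPKM with it. Olr1, the oxidised LDL receptor LOX-1, was under 0.1 FPKM in both untreated libraries and reached 1.12 and 13.04 FPKM at 45 min. Its ratio is thus seen in the pair with LPS, and the deposited bounds of Olr1 overlapped there. Serpinb2, plasminogen activator inhibitor 2, had 3.02 and 23.7 FPKM at 45 min. Ddit4, which encodes the mTORC1 inhibitor REDD1, had 2.42 and 21.0 FPKM. The remaining genes of the 15 were the histidine-degrading enzyme Hal, the chemokine Ccl6, the muscle form of a cytochrome c oxidase subunit Cox6a2, the adhesion receptor Cd97, the pseudokinase Trib3, the inhibitory receptor Cd200r1 and the endothelin receptor Ednrb. All 15 were also above 0 in the untreated pair, 14 had bounds apart and 14 were at least 2-fold higher against the scrambled library of the Set1a+Set1b table. The exception was Ednrb, with 3.05 FPKM in 1 scrambled library, 12.4 FPKM in the other and 22.3 FPKM in the library labelled Pnuts sh.

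A further 84 genes had bounds apart, 60 higher and 24 lower, and the 20 of largest ratio among them were all higher. Among them were the glutathione transferases Gsta3 (0.247 and 6.12 FPKM at 45 min) and Mgst1 (8.05 and 41.0 FPKM), and the carbonyl reductase Cbr2 (1.69 and 13.9 FPKM). Arg1, arginase of the urea cycle, had 1.78 and 12.4 FPKM, and Tsc22d3, which encodes the glucocorticoid-induced protein GILZ, had 5.11 and 31.1 FPKM. Mt2, a metallothionein that binds zinc, had 31.7 and 135 FPKM at 45 min after 23.6 and 40.2 FPKM without LPS. Those named here were at least 2-fold higher against both scrambled libraries.

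The 15 lowest log2 ratios ran from -2.83 to -1.90, and 7 of them were replication-dependent histone genes. Ch25h, cholesterol 25-hydroxylase (chr19:34548276-34556036), had 83.1 and 17.3 FPKM without LPS and 117 and 25.3 FPKM at 45 min, a log2 ratio of -2.17. Pgk1, phosphoglycerate kinase of glycolysis (chrX:103382439-103399038), had 233 and 40.7 FPKM without LPS and 211 and 53.7 FPKM at 45 min (log2 -1.95). In both genes each library labelled Pnuts sh lay below each scrambled one, also that of the Set1a+Set1b table at 124 and 137 FPKM. Id1, an inhibitor of DNA-binding factors, had 178 and 29.4 FPKM without LPS and 56.0 and 8.45 FPKM at 45 min (log2 -2.59). Here the controls differ: the other scrambled library had 11.4 FPKM, against which the ratio was -0.39. Pmepa1 and Lrr1 likewise were not 2-fold lower against that library, at -0.42 and -0.95, while 12 of the 15 were. Hspa14, at 6.30 and 0.0277 FPKM, shares its locus with another gene in the table, and its level could be split between them.

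**Figure D2:**
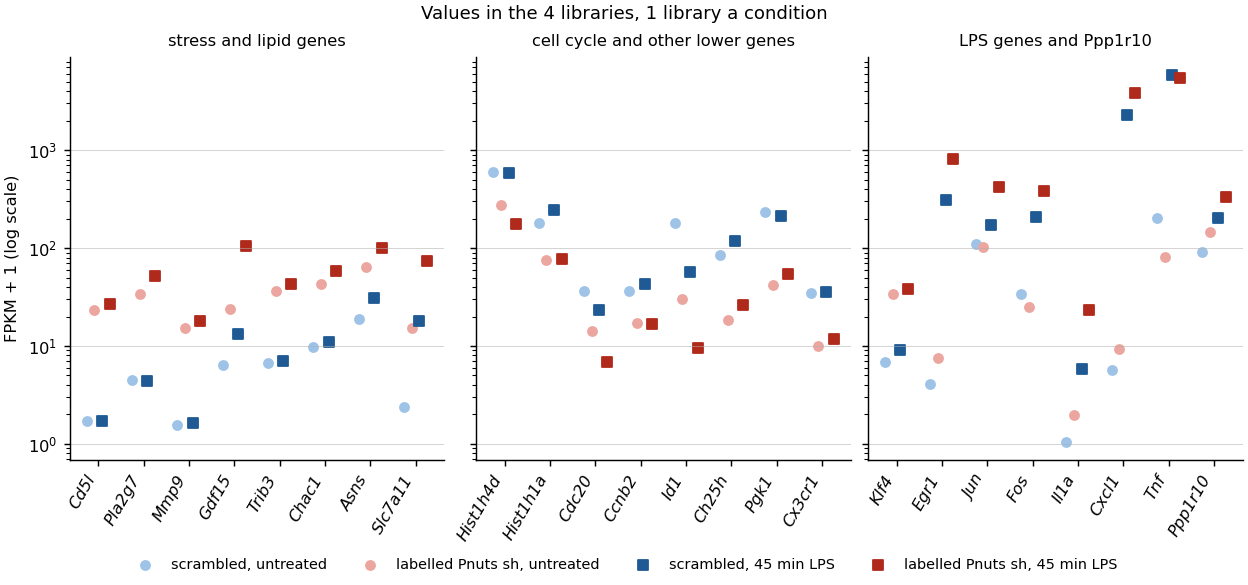
FPKM + 1 on a log axis for 24 genes in the 4 libraries of the table, circles untreated and squares 45 min LPS, blue scrambled and red labelled Pnuts sh, with 1 library a condition and no error bars. Stress and lipid genes (left) are higher in both red points, cell cycle and other genes (middle) lower, and among LPS genes (right) Tnf lies level at 45 min while Jun and Fos separate only there.

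Replication-dependent histones had the lowest median ratio of the lists with at least 5 tested genes. Their short intronless genes are transcribed in S phase and their RNAs end in a stem-loop instead of a polyA tail. Of 69 histone symbols 60 were tested, of which 55 were at least 2-fold lower, none was higher, and the median log2 ratio was -1.59 against 0.09 over all tested genes. Bounds were apart for 24. In the untreated pair the median was -0.85 and 17 were called, and 59 of the 60 had a lower ratio at 45 min than without LPS. Hist1h4d, an H4 gene at chr13:23673467-23673859, had 599 and 273 FPKM without LPS and 590.2 and 177 FPKM at 45 min. The linker histone gene Hist1h1a had 178 and 74.9 FPKM without LPS and 245 and 75.8 FPKM at 45 min. In the H4 gene the scrambled libraries were level with and without LPS, and the library labelled Pnuts sh was lower with it. Summed over the list, the level was 6483 FPKM in the scrambled library and 2150.4 FPKM in the library labelled Pnuts sh at 45 min, and 5914 and 3167 FPKM without LPS.

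By histone class, medians at 45 min were -1.28 for the linker histone H1 (5 of 5 called), -1.47 for H2A (13 of 14), -1.503 for H2B (14 of 17), -1.78 for H3 (11 of 12) and -1.61 for H4 (12 of 12). Of the 5 genes that missed 2-fold, 4 were under 5 FPKM. Hist2h2be had 2.40 and 1.64 FPKM and Hist2h3c1 4.61 and 4.46 FPKM at 45 min, and the others were Hist3h2a (21.2 and 10.8 FPKM), Hist3h2ba and the pseudogene Hist3h2bb-ps. Many of these genes are near-identical copies, and how reads were shared among them is not known here, so the class is firmer than any single gene. With the scrambled library of the Set1a+Set1b table as control, 57 were called lower with a median of -1.79.

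All 26 tested genes of DNA replication and mitosis had a ratio below 0, 13 were at least 2-fold lower, and the median was -1.01 at 45 min and -0.93 without LPS. With the scrambled library of the Set1a+Set1b table as control the median was -0.71 and only 5 were called. Cdc20, an activator of the anaphase-promoting complex, had 35.9 and 13.2 FPKM without LPS and 22.2 and 5.88 FPKM at 45 min (log2 -1.75). Ccnb2, cyclin B2, had 35.9 and 16.1 FPKM without LPS and 41.9 and 15.9 FPKM at 45 min (log2 -1.35), the single member with bounds apart. Mcm5, a subunit of the replicative helicase, had 56.5 and 21.7 FPKM, and the mitotic kinase Plk1 had 17.1 and 6.95 FPKM. Mitotic Bub1, at 36.9 and 34.8 FPKM, and Mki67, at 199 and 172 FPKM, hardly differed at 45 min. In bulk RNA fewer cycling cells and less RNA per cell cannot be told apart.

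Promoters of cell cycle genes are known to carry CCAAT boxes, bound by NF-Y, and the cell cycle homology region TTTGAA. They are shown here because the 13 lower genes shared a direction. Windows of 300 bases around the annotated start were taken from RefSeq (GRCm38.p6), which held 22 of the 26 genes, and searched on both strands. A CCAAT was in 19 of the 22 windows (86.4%) and in 41.1% of the 27025 genes of the promoter table, and a TTTGAA was in 10 of the 22 (45.5%) and in 20.2% of all. Among the 10 called genes with a window, 8 held CCAAT and 5 TTTGAA. The list was made of cell cycle genes, so these shares are no test of what the elements do here. The 3 called genes of lowest ratio that held both are printed with every CCAAT and TTTGAA match of either strand in capitals; no matches overlap. Cdc20 is at chr4:118437294-118437593 on the minus strand, Ccnb2 at chr9:70421505-70421804 on the minus strand and Plk1 at chr7:122159185-122159484 on the plus strand.
Cdc20: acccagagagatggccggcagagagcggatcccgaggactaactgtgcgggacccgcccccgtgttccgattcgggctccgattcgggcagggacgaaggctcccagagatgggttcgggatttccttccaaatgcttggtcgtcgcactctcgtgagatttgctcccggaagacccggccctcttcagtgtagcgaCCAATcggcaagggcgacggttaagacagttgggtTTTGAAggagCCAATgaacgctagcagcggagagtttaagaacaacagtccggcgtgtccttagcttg
Ccnb2: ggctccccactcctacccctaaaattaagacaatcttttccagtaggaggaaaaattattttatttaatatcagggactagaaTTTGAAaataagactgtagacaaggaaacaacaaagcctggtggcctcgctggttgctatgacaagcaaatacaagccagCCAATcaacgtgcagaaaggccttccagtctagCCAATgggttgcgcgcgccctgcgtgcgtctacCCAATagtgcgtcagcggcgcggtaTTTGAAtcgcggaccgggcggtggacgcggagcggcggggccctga
Plk1: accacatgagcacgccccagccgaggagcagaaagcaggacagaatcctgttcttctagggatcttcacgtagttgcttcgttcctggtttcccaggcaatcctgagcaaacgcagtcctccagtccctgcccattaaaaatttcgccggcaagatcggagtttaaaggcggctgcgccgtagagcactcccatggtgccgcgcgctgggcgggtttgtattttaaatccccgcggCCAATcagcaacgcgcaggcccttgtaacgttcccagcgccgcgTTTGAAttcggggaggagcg

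Of 20 listed genes of the integrated stress response and the unfolded protein response, 9 were at least 2-fold higher. In this pathway kinases that sense amino acid shortage or misfolded protein phosphorylate eIF2alpha, the factor ATF4 is made, and ATF4 switches on amino acid transport and synthesis genes. All 20 were tested, none was called lower, and the median was 0.87 at 45 min and 0.65 without LPS. With the scrambled library of the Set1a+Set1b table as control, 9 were called and the median was 0.88; Herpud1 missed 2-fold there, at 0.59, and Psat1, a serine synthesis enzyme, passed, at 1.21. Trib3, a pseudokinase and feedback inhibitor of the pathway, had 5.73 and 35.7 FPKM without LPS and 6.07 and 42.4 FPKM at 45 min (log2 2.62). Chac1, which degrades glutathione, had 8.79 and 41.7 FPKM without LPS and 9.99 and 57.7 FPKM at 45 min (log2 2.42). Asns, asparagine synthetase, had 17.8 and 62.9 FPKM without LPS and 30.0 and 98.4 FPKM at 45 min (log2 1.68). For each of these, both scrambled libraries lay below both libraries labelled Pnuts sh. Slc7a11, the cystine transporter, also responded to LPS, with 1.36 and 14.3 FPKM without it and 16.9 and 72.3 FPKM at 45 min (log2 2.03).

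The other called members were the transcription factors Atf5 and Ddit3 (CHOP), the serine synthesis enzyme Phgdh, the folate enzyme Mthfd2 and Herpud1 of the endoplasmic reticulum. Atf5 had 7.43 and 35.7 FPKM at 45 min and Ddit3 had 62.1 and 130.2 FPKM. Atf4 itself had 449 and 549.9 FPKM, a log2 ratio of 0.29; it is controlled largely in translation, which these data do not measure. Of members tied to the folding branch, Herpud1 was called, at 1.05, and others were under 2-fold. These were Dnajb9 at 0.82, Hspa5, the chaperone BiP, at 0.51, the factor Xbp1 at 0.29, and the folding proteins Sdf2l1 at -0.37 and Pdia4 at -0.40. No chaperone was among the called members.

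ATF4 with C/EBP partners is known to bind the composite element TGATGNAA, so promoters of this list were searched for it on both strands. It was in 5 of 19 windows (26.3%), against 4.51% of all 27025 genes, and all 5 belonged to the 9 called genes. They were Trib3, Chac1, Slc7a11, Asns and Herpud1. The list was made of genes of this pathway, with earlier results of these data known, so these shares are no test of ATF4 acting here. A match describes letters in this window and shows no binding. Windows of the 4 with the largest ratios are printed from RefSeq with the element in capitals on either strand. Trib3 is at chr2:152344011-152344310 on the minus strand, Chac1 at chr2:119350992-119351291 on the plus strand, Slc7a11 at chr3:50443564-50443863 on the minus strand and Asns at chr6:7693160-7693459 on the minus strand, all in GRCm38.p6. Slc7a11 holds the element on both strands.
Trib3: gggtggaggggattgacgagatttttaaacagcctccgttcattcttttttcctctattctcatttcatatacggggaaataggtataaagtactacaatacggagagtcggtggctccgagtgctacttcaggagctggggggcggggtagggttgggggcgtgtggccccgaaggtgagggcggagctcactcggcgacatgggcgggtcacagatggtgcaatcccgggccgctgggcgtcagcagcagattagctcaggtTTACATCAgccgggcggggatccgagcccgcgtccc
Chac1: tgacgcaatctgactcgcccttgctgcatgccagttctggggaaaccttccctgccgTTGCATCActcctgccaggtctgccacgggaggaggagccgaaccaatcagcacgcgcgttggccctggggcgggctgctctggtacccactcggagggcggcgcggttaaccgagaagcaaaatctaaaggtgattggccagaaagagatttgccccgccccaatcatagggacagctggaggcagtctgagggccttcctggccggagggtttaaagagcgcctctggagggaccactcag
Slc7a11: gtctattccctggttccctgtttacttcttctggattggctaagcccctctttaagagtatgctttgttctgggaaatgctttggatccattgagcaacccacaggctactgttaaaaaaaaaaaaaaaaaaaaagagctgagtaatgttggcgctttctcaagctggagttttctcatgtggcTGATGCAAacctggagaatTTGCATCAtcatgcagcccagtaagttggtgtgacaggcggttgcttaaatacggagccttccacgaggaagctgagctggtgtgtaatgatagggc
Asns: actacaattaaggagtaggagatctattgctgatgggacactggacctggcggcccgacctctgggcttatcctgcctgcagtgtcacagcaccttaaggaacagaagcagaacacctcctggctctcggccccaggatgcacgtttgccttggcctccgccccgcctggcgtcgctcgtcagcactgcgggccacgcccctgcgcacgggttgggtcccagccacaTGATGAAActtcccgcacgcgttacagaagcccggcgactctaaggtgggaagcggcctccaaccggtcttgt

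**Figure D3:**
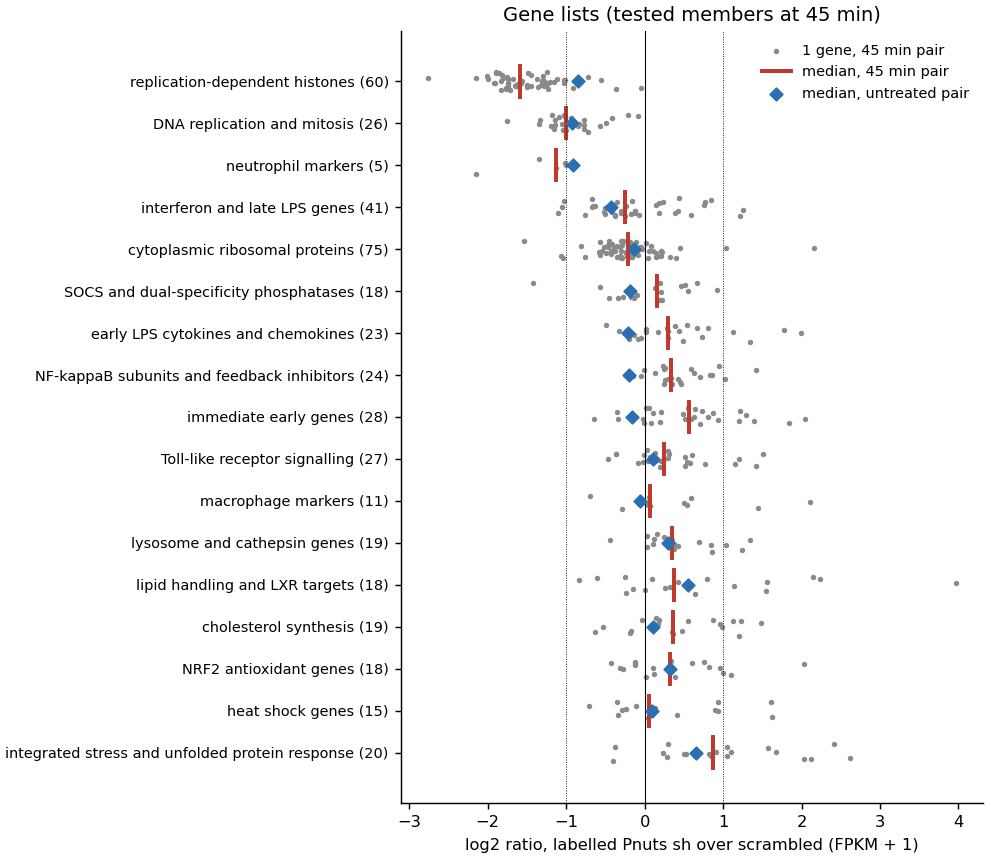
Log2 ratio of each tested member of 17 gene lists in the 45 min pair (grey points), with the list's median in that pair (red bar) and in the untreated pair (blue diamond); dotted lines mark 2-fold, and numbers in brackets give tested members. Histones lie lowest, with a median of -1.59, the stress response list highest, at 0.87, and for 4 LPS response lists the red bar is above 0 and the blue diamond below it.

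The LPS response itself was present in both libraries. To group genes without using the control library again, LPS classes were taken from the empty vector libraries of the unstranded set. Of 137 tested genes induced there at least 4-fold, without small RNA and similar names, 16 (11.7%) were at least 2-fold higher in the library labelled Pnuts sh and 4 (2.92%) lower. With all names kept, the class held 205 genes, 34 (16.6%) higher and 24 (11.7%) lower. The median log2 ratio of the 137 genes was 0.36 at 45 min and -0.14 without LPS. At 45 min 109 of 137 (79.6%) lay above 0, against 56.7% of all tested genes. Induced 2 to 4-fold, 249 genes had a median of 0.36, with 36 called higher and 1 lower, and with all names 49 of 345 were higher and 14 lower. Of the 7468 genes that differed less than 2-fold with LPS there, 208 (2.79%) were higher and 194 (2.60%) lower, with a median of 0.05. The LPS ratio of the 4-fold class was 2.65 (median log2) in scrambled cells and 3.12 in those labelled Pnuts sh. It was larger in the latter for 115 of 137 genes (83.9%). Of the 7468 genes that differed less than 2-fold with LPS, 4413 (59.1%) also had the larger LPS ratio there. With the scrambled library of the Set1a+Set1b table as control the median ratio of the 4-fold class at 45 min was 0.26.

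Immediate early genes, transcription factors and feedback genes that need no new protein, had a median ratio of 0.57 at 45 min and -0.16 without LPS. Of 28 tested, 6 were at least 2-fold higher and none lower. Jun, of AP-1, had 109.9 and 101 FPKM without LPS and 172 and 420.2 FPKM at 45 min, a log2 ratio of 1.29. Fos, its partner, had 32.7 and 24.1 FPKM without LPS and 205 and 378 FPKM at 45 min (log2 0.88). In both genes the untreated library labelled Pnuts sh was slightly below its control, and with LPS it was above. Egr1, a zinc finger factor, had 3.13 and 6.50 FPKM without LPS and 306 and 805 FPKM at 45 min (log2 1.39). Klf4 followed another course, with 5.92 and 33.2 FPKM without LPS and 8.18 and 36.8 FPKM at 45 min (log2 2.04). The remaining called members were Fosb (2.43 and 11.3 FPKM), Egr2 (66.2 and 154 FPKM) and Klf2 (28.3 and 66.3 FPKM), but Klf2 had 72.9 FPKM in the other scrambled library. Junb, at 968 and 1038 FPKM, and Myc, at 196 and 154 FPKM, differed little. With the other control the list's median was 0.33, and Egr1 was just under 2-fold, at 0.97.

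Among early cytokines and chemokines 4 of 23 were at least 2-fold higher and none lower, with a median of 0.30. Those called were interleukins of low level. Il1a had 0.0577 and 0.981 FPKM without LPS and 4.88 and 22.4 FPKM at 45 min (log2 1.99). Il6 was listed at 0 without LPS in both libraries and had 0.931 and 5.6002 FPKM at 45 min (log2 1.77), and its bounds were apart. Il23a had 1.54 and 5.45 FPKM, and Il10, the anti-inflammatory interleukin, had 4.28 and 10.5 FPKM. For Il10 the other scrambled library had 12.1 FPKM, above the library labelled Pnuts sh. The abundant members were close to level at 45 min. Tnf, the tumour necrosis factor gene, had 5800.0 and 5488 FPKM after 203 and 80.7 FPKM without LPS. Cxcl2 had 5411 and 6581 FPKM, Ccl3 2469.6 and 2506 FPKM, and Ccl4 3165 and 2885 FPKM. Cxcl1, a neutrophil attractant, was the widest of these, at 2306 and 3817 FPKM (log2 0.73).

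NF-kappaB subunits and feedback inhibitors had a median of 0.34 at 45 min and -0.20 without LPS. Called higher were 2 of 24, a share near the 6.65% of all tested genes. Tnfaip2, an NF-kappaB target, had 301 and 802 FPKM, and Gadd45b 75.2 and 154 FPKM, though Gadd45b had 156 FPKM in the other scrambled library. The inhibitors Nfkbia (2979 and 3569 FPKM) and Tnfaip3, or A20 (2008 and 2392 FPKM), had ratios of 0.26 and 0.25. Of 24 members 22 had a higher ratio at 45 min than without LPS. The SOCS proteins and dual-specificity phosphatases, which damp cytokine and MAP kinase signals, had a median of 0.16 that turned to -0.12 against the other scrambled library. Socs1 was the only one of 18 past 2-fold, at 3.14 and 0.544 FPKM.

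Interferon and late LPS genes had a median of -0.25 at 45 min and -0.43 without LPS. Of 41 tested, 2 were called higher and 3 lower, shares near the 6.65% and 4.21% of all tested genes. Those lower were the interferon regulatory factor Irf7 (49.2 and 23.7 FPKM), the antiviral synthetase Oas3 (44.6 and 20.9 FPKM) and the ISG15 protease Usp18 (12.5 and 5.25 FPKM). In each, the untreated library labelled Pnuts sh was also below the untreated scrambled one, but against the other control only Usp18 passed 2-fold, with Irf7 at -0.54 and Oas3 at -0.50. The 2 higher genes were neighbours of 1 family of DNA sensors, Ifi204 at 28.3 and 67.4 FPKM and Ifi205 at 18.8 and 46.4 FPKM, both level without LPS. Ifi204 was at 0.86 with the other control. Ifnb1, interferon beta, was listed at 0 without LPS and had 1.62 and 3.47 FPKM at 45 min, and 3.26 FPKM in the other scrambled library.

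Upstream, genes of Toll-like receptor signalling had 4 of 27 called higher and none lower. Tlr4, the LPS receptor, had 43.6 and 86.1 FPKM without LPS and 35.98 and 84.0 FPKM at 45 min (log2 1.20). Its partner Ly96 (MD-2) had 14.0 and 32.2 FPKM, the adaptor Ticam2 (TRAM) 5.74 and 18.2 FPKM and Tlr8 19.5 and 53.6 FPKM. All 4 stood higher without LPS as well. The co-receptor Cd14, at 1171 and 1226 FPKM, and the adaptor Myd88, at 45.3 and 44.8 FPKM, were level. With the other control Ticam2 alone passed 2-fold, while Tlr4 was at 0.96 with 42.8 FPKM in that control.

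**Figure D4:**
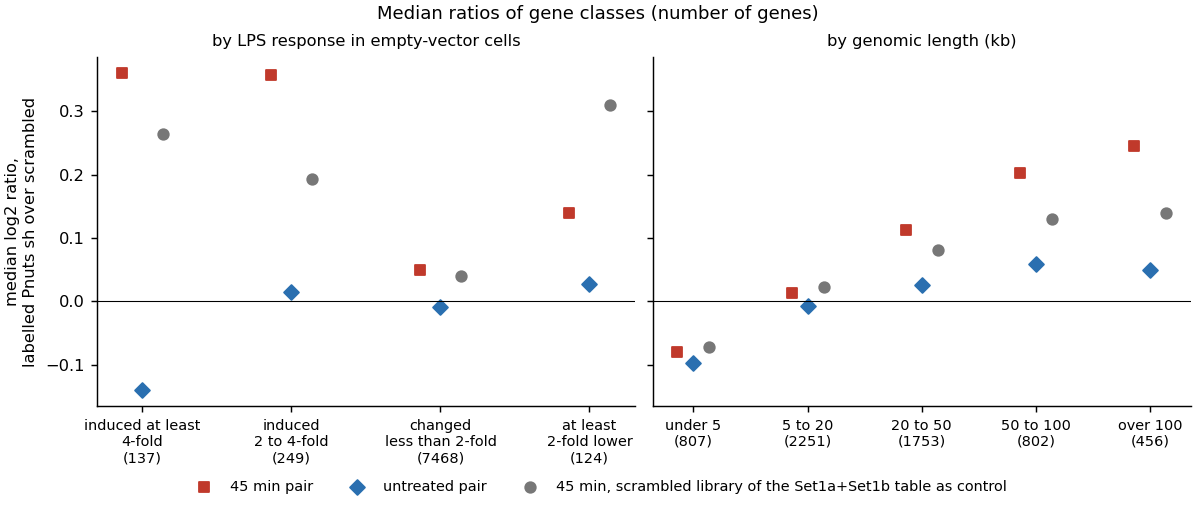
Median log2 ratio of genes grouped by LPS response in empty vector cells (left) and by genomic length in kb (right), for the 45 min pair (red squares), the untreated pair (blue diamonds) and the 45 min library labelled Pnuts sh against the scrambled library of the Set1a+Set1b table (grey circles), with gene numbers in brackets. The induced classes stand at 0.36 at 45 min while the 4-fold class is at -0.14 without LPS, and the median is larger in longer classes, from -0.08 to 0.24; no error bars are drawn, since each pair is 1 library a side.

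Defining macrophage genes were present in all 4 libraries. Csf1r, the receptor that macrophages depend on, had 472 and 387 FPKM at 45 min, Cd68 552 and 571 FPKM, and Sfpi1, which encodes PU.1, 149 and 149.5 FPKM. Of 11 macrophage markers 2 were called, both higher, and the list's median was 0.07, or -0.04 with the other control. Lyz2, lysozyme, had 2017 and 6042 FPKM without LPS and 2652 and 7199.6 FPKM at 45 min (log2 1.44), and 2279.6 FPKM in the other scrambled library. Mrc1, the mannose receptor, had 20.7 and 92.6 FPKM at 45 min, but the other scrambled library had 125 FPKM. Among markers of other cells, none of the T cell, erythroid or mast cell and basophil genes reached the limit for testing. Dendritic cell, B cell and stroma lists had 2, 1 and 2 tested genes with no call. Neutrophil markers had 5 of 9 tested and all 5 at least 2-fold lower, with a summed level of 29.0 FPKM in the scrambled and 7.12 FPKM in the library labelled Pnuts sh, against 24.1 and 10.9 FPKM without LPS. Elane and Ly6g were under 1 FPKM or at 0 throughout, and only S100a8 kept 2-fold against the other control. The part of such cells in the other results was not tested.

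Lipid handling genes and LXR targets, which export cholesterol and respond to oxysterols, held 6 higher genes of 18 and none lower, with a median of 0.38 at 45 min and 0.56 without LPS. Besides Cd5l these were the phospholipid transfer protein gene Pltp (8.39 and 43.3 FPKM at 45 min), the cholesterol exporters Abca1 (3.70 and 19.8 FPKM) and Abcg1 (5.09 and 12.5 FPKM), the ligase gene Mylip (11.8 and 36.5 FPKM) and the desaturase gene Scd2 (4.403 and 14.7 FPKM). Nr1h3, which encodes LXR alpha, was at 4.17 and 1.91 FPKM. Controls differ here too: the other scrambled library had 16.6 FPKM of Abca1, 10.5 FPKM of Abcg1 and 25.6 FPKM of Scd2, so of these 6 only Cd5l, Pltp and Mylip passed 2-fold against it, with Fabp4, a fatty acid binding protein gene, in addition.

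Lysosome and cathepsin genes had 3 of 19 called higher, none lower and 18 above 0. Ctsl, cathepsin L, had 150.3 and 384 FPKM, Ctsk 1.58 and 5.08 FPKM and Ctsc 319 and 658 FPKM at 45 min, of which Ctsl and Ctsk also passed against the other control. Scavenger and complement genes went both ways. Gas6, a bridging ligand for apoptotic cells, had 43.1 and 136 FPKM, and Timd4, a phosphatidylserine receptor, 0.0610 and 2.00 FPKM. Cx3cr1, the fractalkine receptor, was lower, at 34.2 and 9.07 FPKM without LPS and 34.8 and 10.8 FPKM at 45 min (log2 -1.60), with 27.1 FPKM in the other scrambled library. For Gas6 that library had 99.8 FPKM, and the ratio against it was 0.44.

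Over all tested genes 6.65% were called higher and 4.21% lower, for comparison with the metabolic and stress lists. The shares called higher were above this for cholesterol synthesis, p53 target, heat shock and NRF2 genes, all of them short lists. Cholesterol synthesis had 4 of 19 higher (Lss, Cyp51, Insig1 and Sc4mol) and none lower, but none of the 4 passed 2-fold against the other scrambled library. In glycolysis and hypoxia genes, Pgk1 was the only one lower and Vegfa, the vascular growth factor, the only one higher, at 10.1 and 46.9 FPKM. Gapdh, the step before Pgk1 in the pathway, had 26.1 and 24.7 FPKM. Of p53 targets 3 of 16 were higher (Gdf15, Sesn2 and Trp53inp1, the last at 0.48 with the other control), while Cdkn1a, at 330.3 and 294 FPKM, and Mdm2, at 538 and 589 FPKM, were close. Heat shock genes had 2 of 15 called, the near-identical Hspa1a (5.86 and 20.2 FPKM) and Hspa1b (7.27 and 24.3 FPKM), whose reads can be exchanged. NRF2 antioxidant genes had 2 of 18 higher, Slc7a11 and the autophagy receptor Sqstm1 (1204 and 2575 FPKM, at 0.95 with the other control), and Nfe2l2, NRF2 itself, stood at 425 and 849 FPKM, just under 2-fold. Cytoplasmic ribosomal protein genes, 75 tested, had a median of -0.21 with 2 higher and 3 lower.

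The partners of PNUTS and the machinery of transcription held few calls. Over all tested genes 6.65% were called higher and 4.21% lower. In lists this short, few calls do not set these genes apart from the others. None of the 7 genes of the PTW/PP1 list was called. Wdr82 had 32.8 and 29.0 FPKM at 45 min, Tox4 28.9 and 33.5 FPKM, and the phosphatase genes Ppp1ca 128 and 94.2 FPKM, Ppp1cb 31.8 and 60.9 FPKM and Ppp1cc 17.4 and 11.5 FPKM. Zc3h4, a WDR82 partner in early termination, had 30.2 and 22.2 FPKM. Of 21 genes of 3' end processing and termination the only call was Pcf11, a cleavage factor subunit that releases polymerase, at 27.7 and 42.3 FPKM without LPS and 55.2 and 118 FPKM at 45 min (log2 1.09). Against the other control it was at 0.90. No Integrator, Set1 COMPASS, or pausing and elongation gene was called, and of 17 nuclear exosome genes and adaptors Exosc1 alone passed, at 12.4 and 5.65 FPKM (log2 -1.01), with -0.64 against the other control.

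The untreated pair, which shares no library with the 45 min pair but has the same hairpins, showed many of the same genes. The labels do not say whether both pairs came from the same infected cells, so the overlap is no independent repeat. Of 705 genes called higher at 45 min and tested in both pairs, 234 (33.2%) were also called higher without LPS, which is 58.5% of the 400 called there. Of 451 called lower, 129 (28.6%) were called lower without LPS, 44.5% of the 290 there. In the opposite direction 23 and 32 were called. The sign of the untreated ratio was the same for 622 of the 705 higher genes and 341 of the 451 lower ones. Id3, a relative of Id1, had 113 and 15.9 FPKM without LPS and 250.2 and 134.5 FPKM at 45 min. The other scrambled library had 58.9 FPKM of Id3, so its ratio at 45 min was -0.89 with 1 control and 1.18 with the other.

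**Figure D5:**
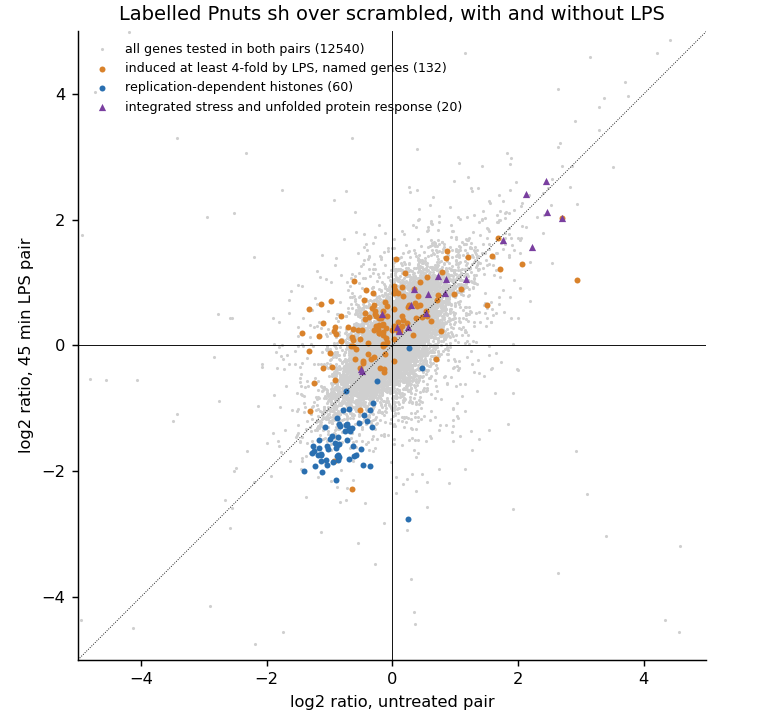
Log2 ratio of the 45 min pair (y) against that of the untreated pair (x) for 12540 genes tested in both, with LPS-induced genes (orange), histones (blue) and stress response genes (purple triangles) marked and a dotted line of equal ratios; 60 genes outside the axes are not shown. Most histones lie below the dotted line, most LPS-induced genes above it, and stress response genes follow it.

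Other hairpins of the series at 45 min gave the following values for the same genes, each against the control of its own table. For the Set1a+Set1b hairpins (514 of 13129 genes, 3.91%, higher and 383, 2.92%, lower), 115 of 702 genes called higher here and tested in both were shared, 30.7% of the calls there. Of the 481 lower ones 107 were shared, 36.1% of the calls there. For the Wdr82 hairpin in the unstranded set (8.38% higher, 3.26% lower) 189 of 701 and 104 of 458 were shared, and for the Wdr82 hairpin in the set with DRB, without DRB (4.12% and 1.93%), 93 of 690 and 47 of 448. Opposite calls numbered 25 to 44 in each. Histones had a median of -1.26 with the Set1a+Set1b hairpins, -0.98 with Wdr82 unstranded and -0.50 in the DRB table. The stress response list stood at -0.13, -0.43 and -0.16 in the same order, against 0.87 in the pair described here. Trib3 had ratios of -0.28, -0.59 and -0.72, and Chac1 of -0.19, -0.38 and -0.31. Slc7a11, of the same list, went the other way and was at least 2-fold higher in each. Its ratios ran from 1.05 in the DRB table to 2.24 with Wdr82 unstranded, so not all members followed the list's median. Pla2g7 was higher in each, at 1.94, 3.04 and 2.18, and Pgk1 lower, at -1.14, -1.96 and -1.61. In the same order, early LPS cytokines and chemokines had medians of 0.61, 0.73 and 0.56, each above the 0.30 of the pair described here. Immediate early genes stood at 0.21, 0.12 and 0.12, against 0.57 here. NF-kappaB subunits and feedback inhibitors stood at 0.24, 0.39 and 0.09, against 0.34 here. Whether these differences between hairpins exceed the error was not tested, since each is 1 library a side.

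Length and position of the loci were compared last. Among genes with a locus to themselves and without small RNA, clone, predicted gene or pseudogene names, the median ratio was -0.08 for 807 genes under 5 kb, 0.01 from 5 to 20 kb, 0.11 from 20 to 50 kb, 0.20 from 50 to 100 kb and 0.24 for 456 genes over 100 kb. Without LPS the same classes ran from -0.10 to 0.06. Of genes over 100 kb 32 were called higher (7.02%) and 4 lower (0.877%), and of those under 5 kb 51 (6.32%) and 86 (10.7%). Over all tested genes 6.65% were called higher and 4.21% lower. The shares called higher were thus near that of all genes in both classes, and the classes differed in the lower calls. Without the 50 histones in the shortest class, its median was -0.06 with 38 of 757 lower. The difference between the classes was smaller against the other scrambled library, from -0.07 to 0.14. Since PNUTS takes part in termination, low genes were also placed by their distance to the nearest active gene. Of 375 low genes within 5 kb, 10.9% were called higher, of 313 at 5 to 20 kb 13.4%, of 319 at 20 to 50 kb 11.9% and of 1020 farther away 11.3%. Without small RNA, clone, predicted gene and pseudogene names the shares were 7.84%, 11.2%, 9.13% and 9.57% in the same order. In neither count was the share largest in the class nearest to an active gene. The distance took no account of strand or of the side on which the active gene lay. Transcription running past the end of a gene was therefore not tested by these shares.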

How the data were processed

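4sU RNA was sequenced from 1 library per condition, strand-specific for the Pnuts set per the labels. The submitters' processing notes name the build mm9, the aligner TopHat 1.3.1, and Cufflinks 2.1.1 with Cuffdiff 2.1.1 for the levels. The deposited tables give for 36806 Ensembl genes (33411 symbols) an FPKM with a lower and an upper bound and a status, per the file headers. Which annotation was used, how libraries were scaled and which level the bounds have was not stated there. No counts were used, since none are in the tables, so precision is known only relative to other libraries.

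From these values log2 ratios with a pseudocount of 1 FPKM were computed with pandas 2.3.3 in Python 3.11.15, and the script was tested on simulated data. Ratios within a table were used, except where the scrambled library of the Set1a+Set1b table replaced the control, which crosses 2 tables normalized separately. Genes named are the PNUTS complex, the 15 highest and 15 lowest ratios, up to 20 further genes with bounds apart, up to 6 members per list, and the 10 highest and 10 lowest differences between the pairs. All needed 5 FPKM in the higher library and no small RNA, clone or pseudogene name. Members of lists below these limits, and genes named for being level or for their value with the other control, were chosen after their values were seen. The pair and the 36 gene lists were chosen with earlier results of these data known. Alternatives were other pseudocounts (0.1 and 5 FPKM), filters, scalings and another control library. 4 of 6 tables were used. Low genes had under 5 FPKM and active loci at least 20 FPKM in the scrambled 45 min library of the Set1a+Set1b table. Promoter sequences are from RefSeq. Results without replicates carry no test. Some genes that these rules name are not reported here.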

Additional observations from a re-analysis of the deposited data

Results flagged for a closer look

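Gene lists whose median ratio had opposite signs in the pair at 45 min and in the untreated pair, both at least 0.1 in size and over at least 5 genes, were singled out. The difference between the pairs was not tested, since each is 1 library a side. Immediate early genes had a median log2 ratio of 0.57 with LPS and -0.16 without it. NF-kappaB subunits and feedback inhibitors stood at 0.34 and -0.20, and early LPS cytokines and chemokines at 0.30 and -0.21. SOCS proteins and dual-specificity phosphatases had 0.16 and -0.18. Pausing and elongation factors had 0.11 and -0.10, with 14 of 19 genes higher in ratio at 45 min. Their 0.11 is near the median of 0.09 over all tested genes. It was 0.02 with ratios centred on the median tested gene and 0.04 with the scrambled library of the Set1a+Set1b table as control. The library labelled Pnuts sh at 45 min was also the shallowest of the 4, at 0.642 of the depth of its control, and its part in these values was not tested.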

How the results depend on the processing

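No paired analysis was possible because each condition has 1 library and the labels carry no replicate numbers; for the same reason no library could be left out, and depth is known only relative to other libraries. Of 287 values recomputed for 53 results, 245 stayed within 1.5 times of a count or 0.2 of a median, and the others follow. Of the 245, 34 were identical to the main value, some by construction: at a pseudocount of 1 FPKM no gene under the filter can be called, and no histone was among the higher genes. Another 9, of 5 results within 0.0659 of 0, had the opposite sign: 3' end processing, macrophage markers (-0.04 with the other control), heat shock genes, and the LPS class under 2-fold and the length class of 5 to 20 kb. The scrambled library of the Set1a+Set1b table and the fit without histones were chosen after seeing the data; the cause of each difference was not tested beyond what the setting itself removes. Genes at least 2-fold higher numbered 1329 with a pseudocount of 0.1 FPKM, 313 with 5 FPKM, 503 without small RNA and similar names, 450 on loci of their own and 129 with bounds apart. Lower genes numbered 259 with 5 FPKM, 249 without such names, 320 on loci of their own and 73 with bounds apart. Calls shared with the untreated pair were 377 higher with 0.1 FPKM, and 90 higher and 58 lower with 5 FPKM. With the scrambled library of the Set1a+Set1b table as control, medians over 0.1 in size turned for SOCS and dual-specificity phosphatases (-0.12), complement and scavenger genes (-0.24), cholesterol synthesis (-0.18) and glycolysis and hypoxia genes (0.0211). With that control medians were 0.33 for immediate early genes, 0.14 for NF-kappaB genes, 0.15 for lysosome genes, 0.17 for lipid genes, 0.0125 for p53 targets, 0.31 for heat shock genes, 0.56 for NRF2 genes, -0.71 for replication and mitosis, -0.00908 for small RNA hosts and -0.0037 for ribosomal proteins. Neutrophil markers stood at -1.77 with 0.1 FPKM and -0.39 with 5 FPKM, and the list of genes leading the Wdr82 pairs at -0.70 with a minimum of 5 FPKM. Low genes called higher, from the nearest class to an active gene to the farthest, were 79, 68, 60 and 231 with 0.1 FPKM, and 20, 25, 20 and 60 without small RNA and similar names. Shared higher calls with 0.1 FPKM were 221 for the Set1a+Set1b hairpins, 377 for Wdr82 unstranded and 210 for Wdr82 in the DRB table, and 122 and 54 for the Wdr82 pairs with a minimum of 5 FPKM.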

Other observations

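Some lists outside the comparisons above were also measured. MHC class II genes, which present antigen to helper T cells, had 1 of 10 tested genes called higher in the library labelled Pnuts sh at 45 min. This was H2-Oa, at 0.139 and 1.95 FPKM, and its ratio was 0.81 against the scrambled library of the Set1a+Set1b table. Of 10 tested host transcripts of small RNAs 9 lay below 0, and Snhg9 alone passed 2-fold, at 3.88 and 0 FPKM. The 22 tested genes that lead the Wdr82 pairs, a list chosen on libraries of the same series, had 5 higher and 4 lower. Among them Rgs16, a regulator of G protein signalling, had 15.4 and 3.61 FPKM, but a ratio of -0.03 with the other control. The 37 mitochondrially encoded genes were listed at 0 in all 4 libraries.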
